A study of Mus musculus with 2 samples.

Results

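The Mir29 family of miRNA genes was examined in skeletal muscle of newborn mice. Its members were the rows whose Ensembl identifier, without version, belongs to Mir29a, Mir29b-1, Mir29b-2 or Mir29c in GENCODE, and all 4 were found among 1973 listed miRNA genes. The study sequenced small RNA (below 30 bases, per the labels) from total RNA of 2 mouse pups of strain B6NCrl, taken from 1 litter at postnatal day 0, with sex not collected and no treatment or mutation in the labels. Replicate 1 is pup 1 and replicate 2 is pup 2, and the labels put both in 1 group, so the study holds no contrast between conditions. Each library is 1 pup, so a difference between them can come from the pup, the dissection or the library.

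A miRNA is a short RNA cut from a hairpin in a longer transcript. It guides Argonaute proteins to messenger RNAs that pair with its seed, the run of bases near its 5′ end. The miR-29 family is known for repressing collagens, elastin and fibrillin, and the de novo DNA methyltransferases. In cultured mouse myoblasts it rises with differentiation, represses the transcriptional repressor Yy1 and the Polycomb partner Rybp, and is itself held down by TGF-beta signalling.

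The 4 hairpins lie as pairs at 2 places, and their mature RNAs carry the same seed. Their sequences are shown because they decide which reads can be told apart. The hairpins below come from RefSeq (GRCm38.p6, the assembly behind mm10), which matched all 4 members by symbol. They run 5′ to 3′ on the strand of the gene, with the 5p arm and then the 3p arm in capitals.
Mir29b-1 (chr6:31063023-31063093, minus strand): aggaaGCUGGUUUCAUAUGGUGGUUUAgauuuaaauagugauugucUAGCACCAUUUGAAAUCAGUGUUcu
Mir29a (chr6:31062660-31062747, minus strand): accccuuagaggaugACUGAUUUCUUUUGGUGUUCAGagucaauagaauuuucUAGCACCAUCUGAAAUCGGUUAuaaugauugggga
Mir29b-2 (chr1:195037040-195037120, plus strand): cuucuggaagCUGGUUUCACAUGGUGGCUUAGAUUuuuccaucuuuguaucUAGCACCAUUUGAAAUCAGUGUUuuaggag
Mir29c (chr1:195037547-195037634, plus strand): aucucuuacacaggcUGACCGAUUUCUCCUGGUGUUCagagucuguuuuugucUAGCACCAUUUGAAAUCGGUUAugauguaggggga

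On chromosome 6, Mir29b-1 precedes Mir29a with 275 bases between the hairpins. On chromosome 1, Mir29b-2 precedes Mir29c with 426 bases between them. No other listed miRNA gene lies within 10 kb of either pair. In GENCODE M21, Mir29a lies outside any other annotated gene, and Mir29b-1 overlaps the long non-coding gene Gm27019 by 2 bases. Mir29b-2 and Mir29c lie wholly in an exon of the non-coding host gene A330023F24Rik on the same strand, and in an exon of Cd46, which encodes a complement regulator, on the opposite strand. No member had a count on the opposite strand in either library.

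**Figure D1:**
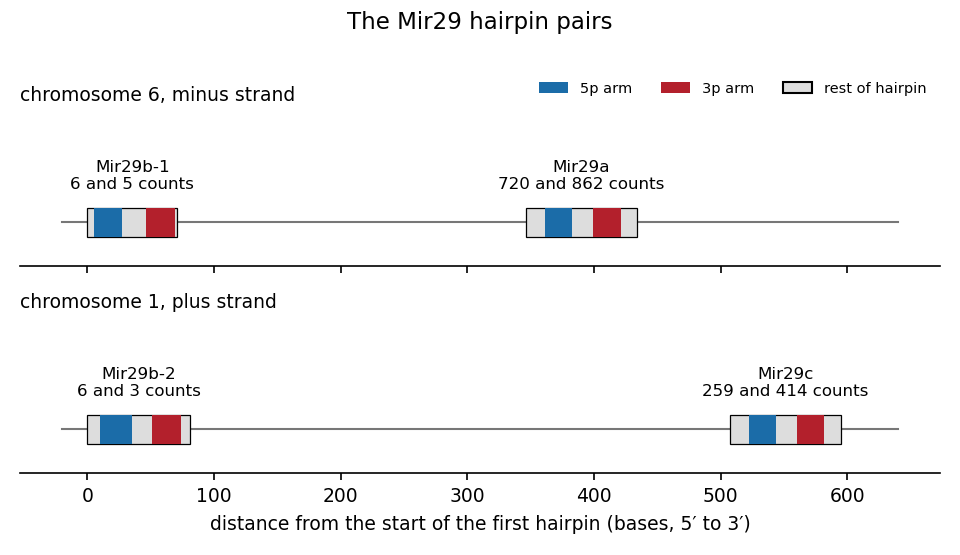
The 2 hairpin pairs drawn to scale, with distance in bases from the start of the first hairpin of each pair on the x axis and the 5p arm (blue), 3p arm (red) and remaining hairpin (grey) as boxes. The own-strand counts in replicate 1 and replicate 2 stand above each hairpin and show few counts on the first hairpin of each pair (6 and 5 on Mir29b-1, 6 and 3 on Mir29b-2) and most on the second.

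The 3p arm is the familiar miR-29, and the lines below give the mature forms with the seed (bases 2 to 8) in capitals to show what the members share.
miR-29a-3p: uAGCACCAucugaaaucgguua
miR-29b-3p: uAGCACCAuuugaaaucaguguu
miR-29c-3p: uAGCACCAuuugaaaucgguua
All 3 have the seed AGCACCA, and no other mature mouse miRNA in the RefSeq table has it. The 5p arms have 4 different seeds, CUGAUUU in miR-29a-5p, CUGGUUU in miR-29b-1-5p, UGGUUUC in miR-29b-2-5p and GACCGAU in miR-29c-5p. Counting from 1 at the 5′ end, miR-29a-3p and miR-29c-3p differ by the single substitution C10U. Between miR-29b-3p and miR-29c-3p there are 3 substitutions, A18G, G21U and U22A, after 17 identical bases.

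The whole of miR-29b-3p stands in both the Mir29b-1 and the Mir29b-2 hairpin, which share an identical stretch of 25 bases. Mir29c and Mir29b-1 share 22 bases, counting hairpin bases before the mature RNA, while the longest stretch that Mir29a shares with another member is 14 bases. The deposited tables list reads that map to several places apart from the gene counts, 2156563 reads in replicate 1 and 2971792 in replicate 2. These were 30.2% and 29.9% of all reads, and how many of them came from miR-29b is not known here. The sources used here do not state the mismatches allowed in alignment.

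To show what the shared seed pairs with, the 3′ UTRs of 13 textbook miR-29 targets were searched for TGGTGCT, the reverse complement of the seed, on the sense strand of the longest annotated 3′ UTR of each gene (GENCODE M21 basic transcripts). The lines below give the first match in 4 of them, with the match in capitals.
Col1a1 (chromosome 11): gtgggaaggaatttcTGGTGCTa
Col3a1 (chromosome 1): ttcaaaatgtctcaaTGGTGCTa
Dnmt3a (chromosome 12): atcccgacttcataaTGGTGCTt
Yy1 (chromosome 12): ttcagttacagaaagTGGTGCTc
The letters occurred in 11 of the 13 UTRs, a count given as a description only, since genes are known as miR-29 targets partly because they carry such sites. Of all 20996 UTRs, with a median length of 954 bases, 13.1% hold the letters, and the share was 7.7% among UTRs within 10% of the length of Col1a2 (882 bases) and 47.9% among those within 10% of Tet1 (7962 bases). Col1a1 and Col3a1, fibrillar collagens, held 1 match each. Among UTRs within 10% of their lengths, 13.2% and 10.1% held a match. The DNA methyltransferase gene Dnmt3a held 5 and the repressor gene Yy1 held 3, in longer UTRs whose like-length shares were 47.7% and 40.7%. Elastin (Eln) held 3 and fibrillin (Fbn1) held 2, and the letters did not occur in the 3′ UTRs of Col1a2 and Sparc themselves. A match is a description of the letters, and no messenger RNA was measured in these libraries.

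Levels are given as CPM, the own-strand count of a gene scaled so that the own-strand counts of all gene rows sum to 1000000. Each count is 1 short read, and the hairpins of the members are 71 to 88 bases long, so CPM values were not divided by length. The libraries held 3754895 and 5133949 own-strand gene counts, at which 3 counts, the limit that a count of 0 allows, are 0.799 and 0.584 CPM. Mir206, a miRNA of skeletal muscle, was the most abundant of the listed genes, at 83323 ± 5480 CPM (SD, n = 2). Markers of 2 other tissues differed most between the pups. The 7 epithelial and skin genes summed to 5688 CPM in replicate 1 and 230 CPM in replicate 2, with none at 0. The 2 cartilage genes summed to 7917 and 1952 CPM, with Mir140 at 6539 and 966 CPM and Mir455 at 1377 and 986 CPM. Elsewhere the ratio of replicate 1 over replicate 2 was 1.41 for white blood cell genes, 1.39 for red blood cell genes and 1.12 for the endothelial gene. It was 0.973 for the liver gene. The 7 fibroblast and smooth muscle genes summed to 45695 and 42101 CPM, and the 9 striated muscle genes measured summed to 81343 and 89366 CPM. Mir206 alone gave 79447 and 87198 CPM of the striated muscle sum. Of its 9 genes, 5 share 20 or more identical bases with another miRNA gene, which Mir206 does not. Among the 5 are Mir1a-1, with 24 and 46 counts, and Mir133a-1, with 20 and 32. Their counts therefore do not give the levels of their mature RNAs. Of 10 neural genes measured, 4 had 0 counts in both libraries, among a list that summed to 1342 and 1577 CPM. Such a shared stretch occurs in 9 of these 10, including the genes at 0 (Mir124a-1, Mir124a-2, Mir124a-3 and Mir9-2). A 0 in them therefore does not show absence of the mature RNA. The part of other tissues in the Mir29 values was not tested.

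Mir29a was the most abundant member, Mir29c came next, and both Mir29b genes were close to the detection limit. Mir29a had 720 counts in replicate 1 and 862 in replicate 2, which is 192 CPM (95% interval 178 to 206) and 168 CPM (157 to 179). Its mean was 180 ± 16.9 CPM (SD, n = 2). Intervals are exact Clopper-Pearson intervals, and they cover counting error only, since the tables hold no molecular identifiers. The intervals of the pups overlapped, which is not a test of a difference. CPM rests on total counts, and under that scaling the exact binomial test described below gave an adjusted p of 0.019 for Mir29a.

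Mir29c had 259 and 414 counts, 69.0 CPM (60.8 to 77.9) in replicate 1 and 80.6 CPM (73.1 to 88.8) in replicate 2, with a mean of 74.8 ± 8.25 CPM (SD, n = 2). It was higher in replicate 2, where Mir29a was lower, and for Mir29c too the intervals of the pups overlapped. The lowest Mir29a value, 168 CPM, lay above the highest Mir29c value, 80.6 CPM, so the order of these members was the same in both pups.

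Mir29b-1 had 6 and 5 counts, 1.60 CPM (0.586 to 3.48) and 0.974 CPM (0.316 to 2.27). Mir29b-2 had 6 and 3 counts, 1.60 CPM (0.586 to 3.48) and 0.584 CPM (0.121 to 1.71). The means were 1.29 ± 0.441 and 1.09 ± 0.717 CPM (SD, n = 2 each), so the order of the 2 Mir29b genes was not resolved. In these genes a count can come from the 5p arm, the loop or a read that reaches past the shared stretch. A low count therefore does not give the level of mature miR-29b, whose 3p reads can map to both hairpins.

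**Figure D2:**
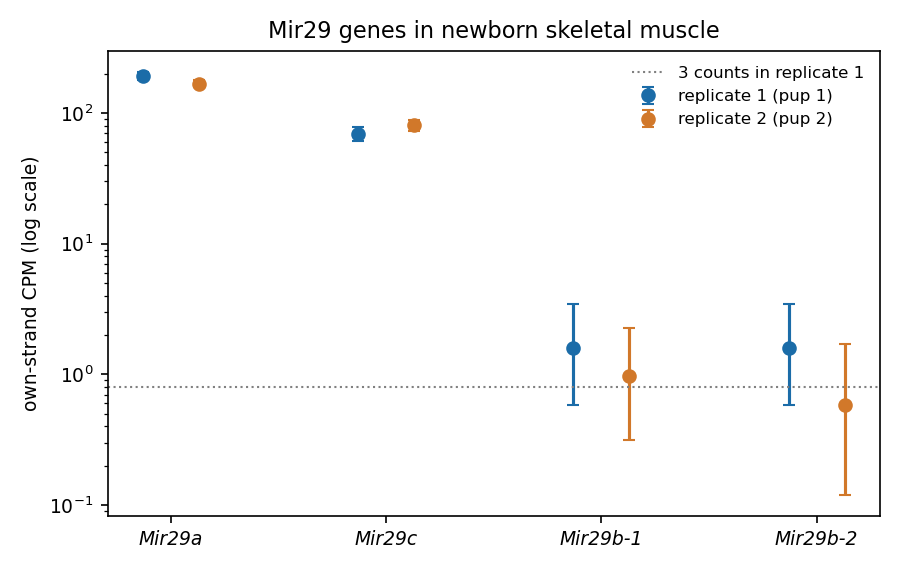
Own-strand CPM (log scale) of each Mir29 gene in replicate 1 (blue) and replicate 2 (orange), with bars for the exact 95% counting interval and a dotted line at 3 counts in replicate 1 (0.799 CPM). Mir29a stands above Mir29c in both pups, and both Mir29b genes lie between 0.584 and 1.60 CPM.

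Within each pair the second hairpin held nearly all counts. Mir29a had 120 times the count of Mir29b-1 in replicate 1 (interval 54.9 to 328) and 172 times in replicate 2 (73.6 to 532). Mir29c had 43.2 times the count of Mir29b-2 in replicate 1 (19.6 to 119) and 138 times in replicate 2 (46.9 to 672). The intervals are wide because they rest on 3 to 6 counts in the smaller member. The smaller members are the Mir29b genes, and reads of miR-29b-3p can map to both of their hairpins. These ratios therefore compare gene counts, not levels of the mature RNAs.

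Shared stretches were common among the listed genes. Of 923 listed genes that share 20 or more identical bases with another miRNA gene of GENCODE M21, 8.02% reached 10 counts in each library, with a median of 81.7 CPM. Of 971 that share none, 24.4% had, with a median of 273 CPM. Mir29c, at 74.8 CPM, is in the first set with both Mir29b genes, and Mir29a, at 180 CPM, is in the second. A shared stretch did not mean a low count in each case, since Mir23a shares one and had 19315 ± 787 CPM.

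The pair on chromosome 6 gave more counts than the pair on chromosome 1 in both pups. Mir29a made up 72.7% of the family's counts in replicate 1 and 67.1% in replicate 2, Mir29c 26.1% and 32.2%, and the Mir29b genes together 1.21% and 0.623%. The ratio of Mir29a to Mir29c was 2.78 in replicate 1 (2.41 to 3.22) and 2.08 in replicate 2 (1.85 to 2.35), with a mean of 2.43 ± 0.493 (SD, n = 2). The counting intervals of the 2 pups did not overlap. This ratio does not depend on library scaling, and on the log2 scale it differed by 0.42 between the pups.

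Differences between the pups were tested for every gene whose counts summed to 10 or more by an exact two-sided binomial test on TMM-scaled library sizes, with Benjamini-Hochberg adjustment over all 373 such genes. The test asks whether 2 libraries differ beyond counting error. Of the 4 members, 3 reached the minimum, and Mir29b-2, with 9 counts, was not tested. Without a minimum fold, 1 of the 3 passed an adjusted p of 0.05, against 49.1% of all genes tested, a share not above the background. That member was Mir29c, lower in replicate 1, a direction in which 25.7% of genes passed, with a log2 ratio of replicate 1 over replicate 2 of -0.36 (exact binomial test, adjusted p = 0.0047). Scaling by total counts in place of TMM moves all ratios up by 0.13, and the Mir29c ratio was then -0.22 (exact binomial test, adjusted p = 0.095), past the threshold no longer.

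Mir29a had a log2 ratio of 0.06 (exact binomial test, adjusted p = 0.56), and under total-count scaling 0.19 (adjusted p = 0.019, the same exact test). The sign of each was the same under both scalings. Mir29b-1 had 0.56 on its 11 counts (exact binomial test, adjusted p = 0.68). At the further minimum of 2-fold, 0 of the 3 members were called, against 5.09% of all genes tested, and 0 with DESeq2 size factors. At an unadjusted p under 0.05, 1 of the 3 passed, again Mir29c, and 52.3% of all genes tested.

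Across the 311 genes that reached 10 counts in each library, the median size of the log2 ratio in either direction was 0.27, and the middle of the distribution ran from 0.13 to 0.45 (lower and upper quartile). Mir29c, at 0.36, lay inside that range and Mir29a below it. For comparison, the 9 striated muscle genes had a median log2 ratio of -0.35 and the 7 epithelial and skin genes of 4.13. The part of either tissue in the Mir29c value was not tested.

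**Figure D3:**
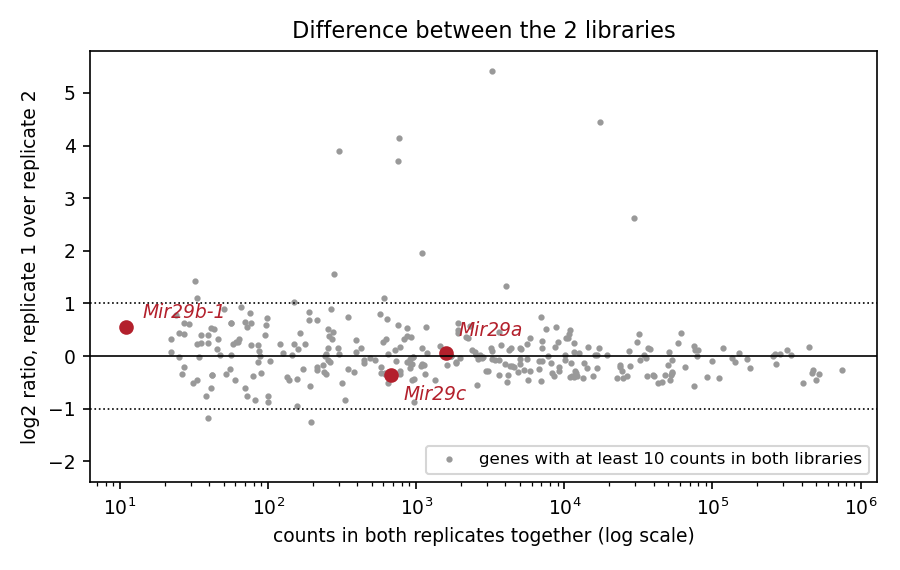
Log2 ratio of replicate 1 over replicate 2 (TMM scaling) against the counts of both replicates together (log scale), with grey points for genes that reached 10 counts in each library, dotted lines at 2-fold and the tested Mir29 genes in red. Mir29a (0.06) and Mir29c (-0.36) lie among the other genes, and Mir29b-1 (0.56) rests on 11 counts.

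Among single genes, Mir29a and Mir29c stood in the upper part of the 653 genes with a count and near or below the median of the better-counted ones. Mir29a ranked 155 and Mir29c 189 by mean CPM, and 311 genes reached 10 counts in each library. The median of these 311 was 178 CPM, beside 180 CPM for Mir29a, with 154 of them above Mir29a and 188 above Mir29c. Mir29b-1 and Mir29b-2 ranked 358 and 372 of 1973 listed genes, of which 1320 had 0 counts in both libraries. No other age or tissue was measured, so whether the family is low for newborn muscle has only the other miRNA genes as its scale. Mir29a was at the median of the 311 genes that reached 10 counts in each library, not of all listed genes.

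**Figure D4:**
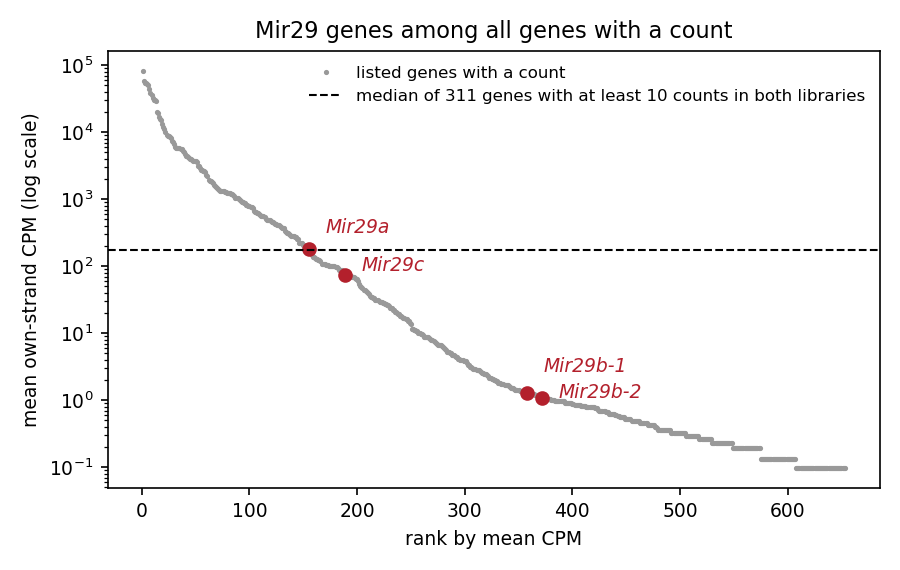
Mean own-strand CPM (log scale) of each listed gene with a count against its rank, with the 4 Mir29 genes in red and a dashed line at the median of the 311 genes that reached 10 counts in each library (178 CPM). Mir29a lies on the median line, Mir29c below it, and both Mir29b genes far down the curve at ranks 358 and 372.

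The genes nearest in level over the 2 libraries, by Euclidean distance of log2(CPM + 1), were Mir467c, Mir350, Mir122, Mir421 and Mir148b for Mir29a, at distances of 0.029 to 0.21. Mir467c had 191 and 165 CPM, and Mir122, a liver miRNA, had 180 and 185 CPM. For Mir29c they were Mir486, Mir3099, Mir33, Mir669l and Mir672, at distances of 0.16 to 0.28. Mir486, a striated muscle gene in Ank1, had 61.5 and 80.1 CPM, beside 69.0 and 80.6 CPM for Mir29c. With 2 libraries this likeness is one of level only. Mir467c, Mir486, Mir669l and Mir29c itself share 20 bases with another gene, so it compares gene counts, not levels of the mature RNAs.

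As a family the 4 genes held few counts. Together they had 991 of 3754895 counts in replicate 1, which is 0.0264% (0.0248 to 0.0281), and 1284 of 5133949 in replicate 2, which is 0.0250% (0.0237 to 0.0264). The summed level was 264 CPM in replicate 1 and 250 CPM in replicate 2, a mean of 257 ± 9.77 CPM (SD, n = 2), and the intervals of the pups overlapped.

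Set against 16 other families with several loci, the Mir29 sum ranked 16 of 17. These families were chosen with earlier results of these data known, so the rank describes this list only. The let-7 genes, timers of differentiation, summed to 82170 ± 6771 CPM over 10 measured genes, and the Mir29 sum was 0.304% of it in replicate 1 and 0.323% in replicate 2. The Mir30 family, broadly expressed in differentiated tissue, summed to 15106 ± 2062 CPM over 6 genes, and Mir29 was 1.59% and 1.83% of it. The Mir26 family, known to promote myoblast differentiation, summed to 17155 ± 1621 CPM over 3 genes, and Mir29 was 1.44% and 1.56% of it. Nearly all of that sum was Mir26b, with a mean of 17121 CPM, while Mir26a-1 and Mir26a-2 had 5.01 and 29.3 CPM. Every one of these 3 families was higher than Mir29 in both pups. Reads that map to several places are not in these sums. Of the measured genes, 5 of let-7, 2 of Mir30, 2 of Mir26 and 3 of Mir29 share 20 bases with another gene. The percentages thus compare gene counts, not levels of the mature RNAs. With 2 libraries a paired exact permutation test cannot go below p = 0.5, so no p-value is given.

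The families near Mir29 overlapped it or lay close. The Mir34 family, which responds to p53, summed to 302 and 224 CPM, above Mir29 in replicate 1 and below it in replicate 2. Mir24, with 1 of its 2 genes measured, had 392 and 377 CPM, and that gene shares 20 bases with another. The pair Mir221 and Mir222, known from proliferating myoblasts, summed to 123 and 70.7 CPM and was the lowest of the 17. With every gene that shares 20 bases left out, 14 families kept a gene, and Mir29, then Mir29a alone, ranked 13 of them.

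**Figure D5:**
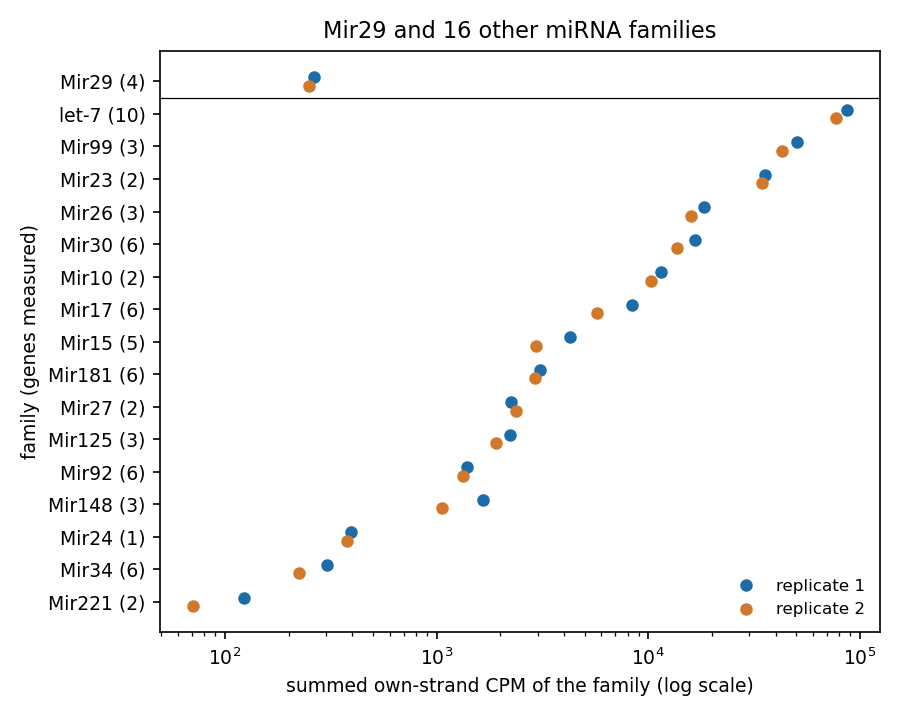
Summed own-strand CPM (log scale) of the Mir29 family (top row) and of 16 other families in replicate 1 (blue) and replicate 2 (orange), with the number of measured genes in parentheses. Mir29, at 264 and 250 CPM, lies near Mir34 and Mir24, above Mir221 and far to the left of let-7.

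Of the context lists, 2 hold miRNA genes linked to DNA methyltransferases or to fibrosis, whether or not they act as miR-29 does. Each of these 2 lists summed to more CPM than the Mir29 family in both pups. Mir148a, Mir148b and Mir152, known to target the maintenance DNA methyltransferase Dnmt1 where miR-29 targets the de novo enzymes, summed to 1649 and 1056 CPM. All 3 were higher in replicate 1 beyond counting error, by less than 2-fold, where the background in that direction was 23.3%. Under total-count scaling all 3 passed again, with a background share of 31.6%. With only 3 genes, the count is not read as a result about the list. Mir148a had 1063 and 579 CPM, Mir152 403 and 331 CPM, and Mir148b 183 and 146 CPM, close to Mir29a at 192 and 168 CPM.

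The 12 measured genes of 13 linked to fibrosis or its restraint summed to 32073 and 27560 CPM, and 9 of them share 20 bases with another gene. Of these 12, 4 were higher in replicate 1 and 2 in replicate 2 beyond counting error, all by less than 2-fold, where the background shares were 23.3% and 25.7%. Under total-count scaling the counts were 5 and 1, with background shares of 31.6% and 17.2%, so neither count is read as a result about the list. Mir22, abundant in striated muscle, led them with 15836 and 14905 CPM. Mir21a, which rises in fibrosis, had 8474 and 5682 CPM, and Mir214, of connective tissue, had 6248 and 5414 CPM. Against these, the summed Mir29 level was 264 and 250 CPM. The libraries come from whole tissue, so fewer cells of a type and less RNA per cell cannot be told apart for any of these levels.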

How the data were processed

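Small RNA libraries of 2 pups (1 group) were compared gene by gene. The deposited values are whole-number read counts per miRNA gene on mm10 with annotation M4, per the file descriptions deposited with each library; the sources used here name no aligner or counter. Each table has 3 unnamed count columns, and the first equals the sum of the other 2 in every gene row. The second was read as the own strand from this layout and its totals. The 4 leading lines (reads unmapped, multimapping, without a feature or ambiguous) stayed out of library sizes: 47.4% and 48.4% of reads. Names and coordinates came from GENCODE M21 (1894 of 1973 identifiers matched).

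Counts were scaled to CPM. For ratios, 0.5 was added to each count and edgeR 4.0.16 TMM factors were used (R 4.3.3); tests and intervals used scipy 1.17.1. An edgeR contrast needs 2 groups, so an exact binomial test was used. It was checked on simulated counts that held counting error only. There 80.9% of genes set to differ 2-fold passed the adjusted threshold in the right direction, as did 3.55% of unchanged genes in either direction. That check does not cover spread between pups beyond counting error. The libraries were not copies (chi-square 337 times its degrees of freedom).

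Named were all members, their neighbours within 10 kb, the 5 genes nearest in level to Mir29a and to Mir29c, and the sum and leading genes of fixed lists. Other members of the DNA methyltransferase list, Mir21a, Mir214 and the 13 UTR targets were added later. Members and lists were chosen with earlier results of these data known. Alternatives were both strands, other denominators, scalings, filters and pseudocounts, and each library alone.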

Additional observations from a re-analysis of the deposited data

How the results depend on the processing

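Of 44 values recomputed with both libraries, 33 kept their direction, side of the threshold and size within the spread between the pups, and no log2 ratio changed sign. Counting both strands gave Mir29a 161 CPM, rank 164, and the family share 0.0230%, because the denominator grows. With all reads as the denominator, Mir29a had 93.8 CPM, Mir29c 38.9 CPM, Mir29b-1 0.671 CPM and the family 0.0134%, and without Mir206 in the denominator the family share was 0.0280%. Leaving out genes that share 20 bases gave the family rank 13 of 14. Total-count scaling gave log2 ratios of 0.19 for Mir29a, which then passed the threshold, and -0.22 for Mir29c, which then did not (exact binomial test). Without 1 replicate or the other, Mir29a ranked 153 to 155 and the family 15 to 16 of 17. With 2 libraries either one always lies within 1 SD of their mean, so the other values obtained this way show nothing about stability. Genes called ran from 13 to 22 around 19. No paired analysis was possible because the labels give 1 group. Depth limits both Mir29b genes, at 3 to 6 counts a library.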
